A study of Mus musculus with 9 samples.

Results

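Mpo, Elane, Prtn3 and Ctsg encode the enzymes that fill the primary, or azurophil, granules of neutrophils. They were selected on these same arrays because their signals were higher in the Sirt1 knockouts, so their differences between genotypes are described here with no test. Each is read by 1 probe set, a group of array probes for 1 transcript, and these are 4 of the 12393 genes that the arrays measure. The arrays, 9 in all, hold RNA of mouse CD4+CD25+ cells labelled as regulatory T cells, which were separated with magnets. In the Foxp3-cre group Sirt1 was knocked out conditionally by Foxp3 Cre recombinase, in the CD4-cre group it was knocked out conditionally by CD4 Cre recombinase, and the WT group is wild type. There are 3 arrays in each group, and all 3 groups carry the strain label C57BL6. Foxp3 is the lineage factor of regulatory T cells, and a Cre under its control acts in cells that express it, whereas a CD4-driven Cre acts in T cells more broadly, from the thymus on. Sirt1 is an NAD-dependent deacetylase. The sources used here do not give the part of the gene removed, the age and sex of the mice, or whether the samples of a group came from separate animals. The spread between the arrays of a group may therefore be technical.

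Primary granules are made early, at the promyelocyte stage of the bone marrow, and transcription of their enzymes is largely shut off as the cell matures. The proteins persist in the circulating neutrophil, but their mRNA marks the precursor. Secondary granule genes such as Camp and Ltf follow at the myelocyte stage, and receptors and cytokines such as Fpr2 and Il1b come later still. Mpo is a haem peroxidase that makes hypochlorous acid from hydrogen peroxide and chloride. Elane (neutrophil elastase), Prtn3 (proteinase 3) and Ctsg (cathepsin G) are serine proteases of the chymotrypsin fold, activated by the dipeptidyl peptidase Ctsc. All of them are known as products of myeloid cells. In RNA of a mixed sample, more cells of a type and more RNA per cell cannot be told apart.

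Because the genes moved together, their promoters are shown, from 250 bases before to 50 bases after the annotated start, as RefSeq gives them on GRCm38.p6 and read on the strand of the gene. All 4 genes matched a window. They lie at chr11:87793534-87793833 on the plus strand for Mpo, chr10:79886062-79886361 on the plus strand for Elane, chr10:79879417-79879716 on the plus strand for Prtn3, and chr14:56102525-56102824 on the minus strand for Ctsg. Capitals mark the letters of motifs known for factors of myeloid precursors.
Mpo: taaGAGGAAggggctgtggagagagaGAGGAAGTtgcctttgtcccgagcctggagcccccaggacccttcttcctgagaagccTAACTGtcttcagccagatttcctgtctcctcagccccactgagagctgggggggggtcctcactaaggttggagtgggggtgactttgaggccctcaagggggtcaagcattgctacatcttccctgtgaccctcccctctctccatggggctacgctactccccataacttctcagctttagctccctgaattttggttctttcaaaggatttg
Elane: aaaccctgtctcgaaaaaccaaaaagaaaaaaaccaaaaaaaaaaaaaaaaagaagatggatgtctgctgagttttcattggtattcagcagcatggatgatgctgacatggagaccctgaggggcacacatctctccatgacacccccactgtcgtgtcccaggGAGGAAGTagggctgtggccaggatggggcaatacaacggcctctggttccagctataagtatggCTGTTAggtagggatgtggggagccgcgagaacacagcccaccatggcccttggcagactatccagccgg
Prtn3: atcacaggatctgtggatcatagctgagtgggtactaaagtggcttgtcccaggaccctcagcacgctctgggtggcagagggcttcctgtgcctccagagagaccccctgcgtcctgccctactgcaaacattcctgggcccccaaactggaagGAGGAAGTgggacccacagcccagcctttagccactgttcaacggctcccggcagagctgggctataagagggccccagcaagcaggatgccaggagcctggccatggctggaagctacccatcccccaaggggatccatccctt
Ctsg: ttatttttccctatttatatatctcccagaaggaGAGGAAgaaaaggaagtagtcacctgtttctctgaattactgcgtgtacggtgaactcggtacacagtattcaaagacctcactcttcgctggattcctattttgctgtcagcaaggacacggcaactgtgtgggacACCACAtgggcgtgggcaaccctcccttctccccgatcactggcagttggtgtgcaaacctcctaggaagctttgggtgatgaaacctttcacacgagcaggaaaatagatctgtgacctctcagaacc
The motifs were searched on both strands. GAGGAA, letters bound by PU.1 and related Ets factors, occurred in 4 of 4 windows, against 28.3% of the 32851 windows in the table. TAACNG, a Myb motif, occurred in 2 of the 4, Mpo and Elane, against 23.3%. TGTGGT, a Runx motif, occurred in 1, Ctsg, on the opposite strand, against 16.8%. TTGCNNAA, a C/EBP motif, occurred in 0 of the 4 and in 10.8% of all windows. A longer form, GAGGAAGT, picked after the sequences had been read and overlapping GAGGAA, stood in 3 of the 4, all but Ctsg, and in 3.2% of all windows. In Elane and Prtn3 it begins 85 and 95 bases before the start, and in Mpo 224 bases before it. These are matches of letters and not shown sites.

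**Figure D1:**
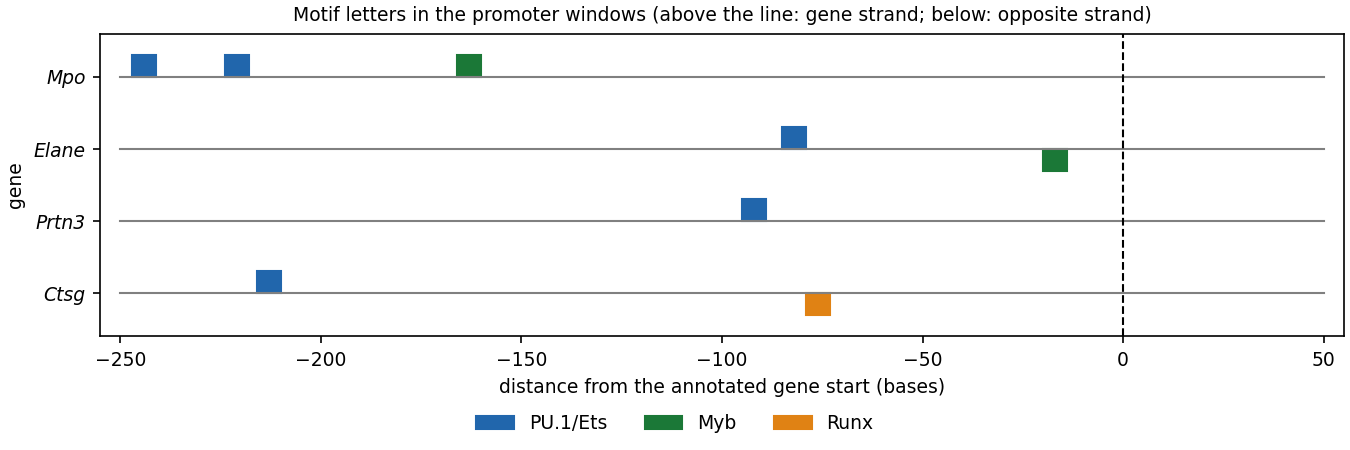
Positions of the motif letters in the promoter windows of Mpo, Elane, Prtn3 and Ctsg, by distance in bases from the annotated start (dashed line); boxes above a line are on the strand of the gene and boxes below it on the other strand. PU.1/Ets letters appear in 4 of 4 windows, Myb letters in Mpo and Elane, and Runx letters in Ctsg.

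Signals are log2 values, on which a difference of 1 is a 2-fold change. WT replicate 2 stood apart from the other arrays: it correlated with them at 0.982 to 0.987 over all probe sets, while the other 8 correlated at 0.992 or more with each other. Its 5' minus 3' signal of beta-actin was -1.53, against -0.68 to -0.45 on the others, a measure of RNA integrity. Foxp3 averaged 2.96 ± 0.37 in Foxp3-cre, 9.66 ± 0.04 in CD4-cre and 9.39 ± 0.26 in WT (SD, n = 3 each), so the signal of this defining transcript of regulatory T cells was low on the Foxp3-cre arrays. Foxp3 is read by 1 probe set. Whether that probe set reads every form of the transcript in these mice was not tested, so its low signal does not show that Foxp3 was lost. The Sirt1 probe set averaged 7.55 in Foxp3-cre, 7.62 in CD4-cre and 7.53 in WT; it may lie outside the deleted part, so the labels could not be checked with it. The mean of the T cell markers was level, at 10.40 ± 0.05 in Foxp3-cre, 10.38 ± 0.01 in CD4-cre and 10.38 ± 0.08 in WT (SD, n = 3 each).

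The primary granule genes were graded in the same order by genotype. Averaged over the 4 genes, the log2 signal was 6.17 ± 0.30 in Foxp3-cre, 5.59 ± 0.10 in CD4-cre and 4.84 ± 0.28 in WT (SD, n = 3 each). That is a difference of 1.33 in Foxp3-cre minus WT, of 0.75 in CD4-cre minus WT and of 0.58 in Foxp3-cre minus CD4-cre. For 4 of 4 genes all 3 Foxp3-cre arrays lay above all 3 WT arrays, which held for 11.1% of the 7436 genes tested, and likewise for 4 of 4 genes in CD4-cre against WT, which held for 11.9%. For 3 of 4, all but Ctsg, the Foxp3-cre arrays also lay above all CD4-cre arrays, which held for 10.9%. These counts follow from how the genes were selected and support nothing.

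Mpo, the peroxidase, read 6.96, 6.30 and 6.69 in Foxp3-cre, 6.07, 5.94 and 5.96 in CD4-cre, and 3.88, 5.49 and 5.16 in WT. The CD4-cre arrays lie close together, the WT arrays spread over more than a log2 unit, and no array of one group reaches another group. The difference was 1.81 in Foxp3-cre minus WT (SE 0.35, 3.50-fold) and 1.15 in CD4-cre minus WT (2.21-fold), the largest of the 4 genes in both contrasts. The WT mean leans on replicate 1: without that array the differences were 1.33 (2.51-fold) and 0.66 (1.59-fold). Without WT replicate 2, the array of lower RNA integrity, they were 2.13 and 1.47.

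Prtn3, the protease closest to the common pattern, read 6.80, 6.17 and 6.77 in Foxp3-cre, 5.90, 5.90 and 6.04 in CD4-cre, and 4.95, 5.30 and 5.51 in WT. The groups follow each other without overlap, with Foxp3-cre replicate 2 just above the CD4-cre arrays. Its difference was 1.33 in Foxp3-cre minus WT (SE 0.19, 2.51-fold) and 0.70 in CD4-cre minus WT (1.62-fold). Elane, its neighbour on the chromosome, read 5.93, 5.62 and 6.15 in Foxp3-cre, 5.34, 5.23 and 5.37 in CD4-cre, and 4.79, 4.59 and 4.91 in WT. Again no array of one group reaches another group. Its difference was 1.14 in Foxp3-cre minus WT (SE 0.14, 2.20-fold) and 0.55 in CD4-cre minus WT (1.47-fold).

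Ctsg read 5.98, 5.23 and 5.40 in Foxp3-cre, 5.32, 4.82 and 5.14 in CD4-cre, and 4.45, 4.61 and 4.39 in WT. Foxp3-cre replicate 2 lies below CD4-cre replicate 1, so these groups overlap, while WT lies below both knockouts. Its difference was 1.05 in Foxp3-cre minus WT (SE 0.19, 2.08-fold) and 0.61 in CD4-cre minus WT (1.53-fold). Between the knockouts, the differences of Foxp3-cre minus CD4-cre were 0.66 for Mpo, 0.58 for Elane, 0.63 for Prtn3 and 0.44 for Ctsg.

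**Figure D2:**
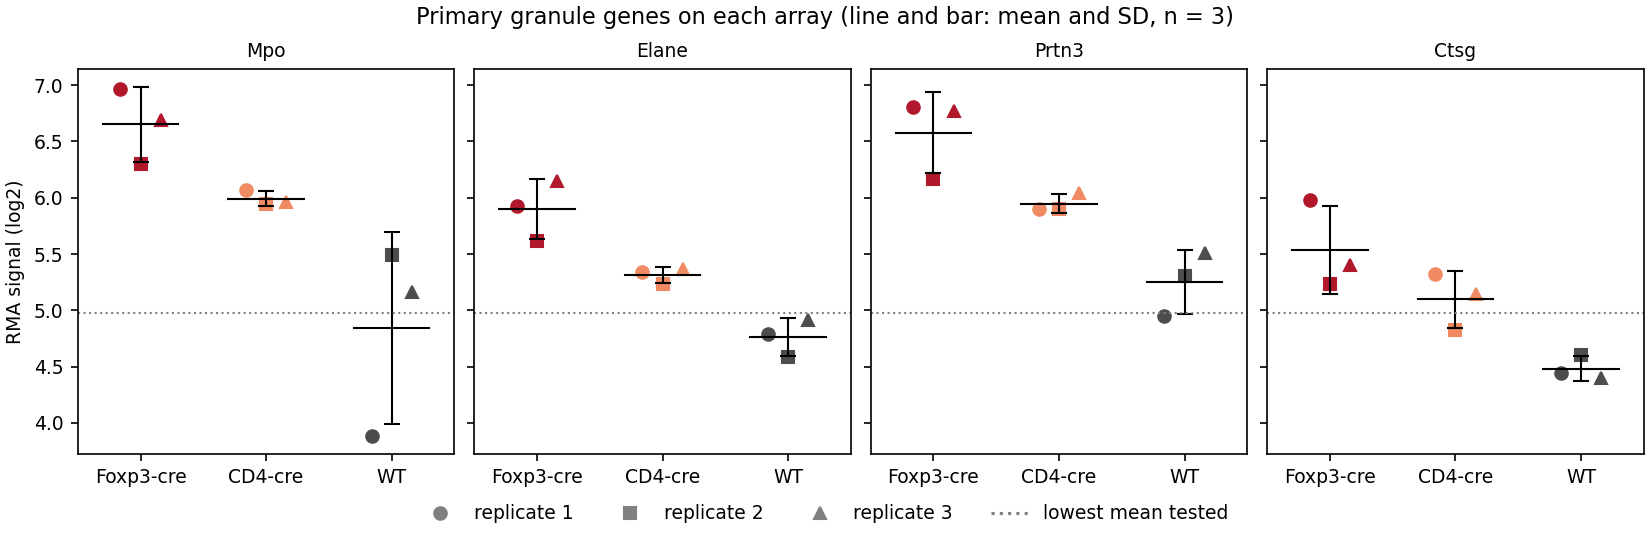
RMA log2 signal of Mpo, Elane, Prtn3 and Ctsg on each of the 9 arrays, by genotype; markers give the replicate, lines and bars the mean and SD (n = 3), and the dotted line the lowest mean signal at which a gene was tested, 4.98. The order Foxp3-cre, CD4-cre, WT from high to low appears in every panel, with overlap only between Foxp3-cre and CD4-cre for Ctsg.

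The signals are modest. Of all probe sets on the same array, 48.0 to 67.4% read no higher than the 4 genes in Foxp3-cre, 43.7 to 57.4% in CD4-cre and 32.1 to 51.4% in WT. Genes were tested only where the mean over the 9 arrays reached 4.98, and 4 of 4 did. The WT means of Mpo, Elane and Ctsg lie below that level, by 0.13, 0.22 and 0.50, so these genes passed through the knockout arrays. The WT mean of Prtn3 lies 0.27 above it. Near the floor of an array RMA compresses differences, and the fold changes are best read as those of dim probe sets. Ranked by difference among the 7436 genes, Mpo was number 13 in Foxp3-cre minus WT and number 5 in CD4-cre minus WT. Elane, Prtn3 and Ctsg were numbers 55, 30 and 64 in the first contrast and 86, 40 and 58 in the second. These ranks follow from how the genes were selected and support nothing.

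Inside each knockout group the same array was lowest or tied lowest for the 4 genes, though they did not share a full order of arrays. Foxp3-cre replicate 2 was the lowest of its group for 4 of 4 genes, and Foxp3-cre replicate 1 the highest for 3 of 4, with Elane the exception. CD4-cre replicate 2 was lowest or tied lowest for 4 of 4. Some gaps there are small: Mpo read 5.940 on replicate 2 and 5.965 on replicate 3, and Prtn3 tied at 5.899 on replicates 1 and 2. How many of all tested genes were lowest or highest on the same arrays was not counted, so a shift of the whole array cannot be told apart. No shared lowest array was seen in WT, where replicate 1 was lowest for Mpo and Prtn3, replicate 2 for Elane and replicate 3 for Ctsg. Against the mean of the other 3 genes, over the 9 arrays, Pearson's r was 0.981 for Prtn3, 0.903 for Mpo, 0.903 for Elane and 0.902 for Ctsg. After each group's mean was taken off, it was 0.868 for Prtn3, 0.553 for Mpo, 0.454 for Ctsg and 0.295 for Elane. Among 7433 genes these values ranked 31, 384, 833 and 2027. The first set of values carries the genotype difference by which the genes were selected, and all of them share the arrays.

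The genes that surround the primary granule enzymes in the cell were read from 16 lists of pathway genes and cell type markers, which hold 166 genes. A probe set exists for 143 of them, and 100 passed the filter on dim genes. The lists were chosen with earlier results of these data known. Their counts beside those of all genes are therefore a description and no test of the lists. In Foxp3-cre minus WT, 18 of the 100 rose and 1 fell at a limma adjusted p under 0.05, against 1.69% of all 7436 genes called higher and 1.67% called lower. At an unadjusted p under 0.05 in limma, 45 were higher and 5 lower, beside 10.5% and 10.8% of all genes. The unadjusted counts of single lists below are to be read beside the shares of all genes in the same contrast. The companions' median difference was 0.36, while that of all genes was 0.01. In CD4-cre minus WT, 1 of the 100 rose and 0 fell in limma, with 10 higher and 8 lower at an unadjusted p under 0.05, beside 7.38% and 6.7% of all genes, so that count is near the background. Of all genes, 0.229% were called higher and 0.43% lower in that contrast, and the companions' median was 0.12. The count of 18 depends on single arrays: it was 1 without Foxp3-cre replicate 3, 5 without WT replicate 3, 6 without CD4-cre replicate 1, 10 without CD4-cre replicate 2, 11 without Foxp3-cre replicate 2 and 19 without WT replicate 2. With the Foxp3-cre and WT arrays alone in the fit it was 0.

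Among the genes that activate, pack or restrain the granule proteases, 1 inhibitor rose. Serpinb1a, which inhibits elastase, proteinase 3 and cathepsin G, read 6.30, 7.04 and 7.39 in Foxp3-cre, 5.63, 5.39 and 6.21 in CD4-cre, and 5.42, 5.58 and 5.39 in WT. It rose in Foxp3-cre by 1.45 (SE 0.27, 2.73-fold, limma adjusted p = 0.0265), with all 3 arrays above all 3 WT arrays, and stood at 0.28 in CD4-cre (adjusted p = 0.658). Its dim probe set stood at 0.74 in Foxp3-cre and 0.39 in CD4-cre. Ctsc, the activating peptidase, chosen for its role like Srgn, had a difference of 0.69 in Foxp3-cre (adjusted p = 0.0932), against 0.28 in CD4-cre. Srgn, the proteoglycan serglycin on which granule proteases are packed, had a difference of 0.14 and 0.11. Slpi, another inhibitor of the list, chosen after its values were seen, stood at 0.28 in Foxp3-cre and -0.84 in CD4-cre (adjusted p = 0.275). Of the 7 tested genes of this list, 1 rose in Foxp3-cre and 0 in CD4-cre, with medians of 0.32 and 0.11. At an unadjusted p under 0.05, 3 were higher and 0 lower in Foxp3-cre, beside 10.5% and 10.8% of all genes. In CD4-cre 1 was higher and 1 lower, beside 7.38% and 6.7%. Without WT replicate 2, the array of lower RNA integrity, 3 of the 7 rose in Foxp3-cre and the median was 0.15, and the CD4-cre median was 0.01; without WT replicate 3, 0 rose and the medians were 0.57 and 0.18. The call on Serpinb1a was lost without Foxp3-cre replicate 2 or 3, CD4-cre replicate 1 or WT replicate 3.

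Other contents of the azurophil granule and the haem pathway did not pass. Among 7 tested lysosomal or azurophil genes 0 passed in limma in either knockout (3 higher in Foxp3-cre and 0 in CD4-cre at an unadjusted p under 0.05). The lysozymes had the largest differences: Lyz2 had 1.28 in Foxp3-cre (adjusted p = 0.116), against -0.07 in CD4-cre, and Lyz1 had 1.02 (adjusted p = 0.134), against -0.15. The lysozymes have closely similar sequences, so their probe sets may share signal. Of 7 haem synthesis enzymes, which supply the prosthetic group of Mpo, 0 passed in limma in either knockout, with 1 lower in Foxp3-cre and 0 in CD4-cre at an unadjusted p under 0.05. Uros, a porphyrin synthase, stood at -0.27 (adjusted p = 0.0955) and Alas1, the first enzyme of the pathway, at 0.25 (adjusted p = 0.404) in Foxp3-cre. Of 5 NADPH oxidase subunits, the enzyme that supplies Mpo with peroxide, 0 passed in limma, with 2 higher in Foxp3-cre and 0 in CD4-cre at an unadjusted p under 0.05. Cybb, its catalytic chain, stood at 1.36 in Foxp3-cre (adjusted p = 0.122) and Ncf1, an organizing subunit, at 1.05 (adjusted p = 0.0971).

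Among the transcription factors of granulocyte and monocyte precursors, 12 were tested and Myb alone passed in limma, higher in both knockouts. At an unadjusted p under 0.05, 4 were higher and 1 lower in Foxp3-cre, and 1 higher and 0 lower in CD4-cre. Myb, a factor of proliferating precursors that T cells express as well, read 9.36, 9.62 and 9.59 in Foxp3-cre, 9.49, 9.45 and 9.50 in CD4-cre, and 8.78, 9.01 and 8.92 in WT. Both knockouts lie above WT and overlap each other. The difference was 0.62 in Foxp3-cre (SE 0.09, adjusted p = 0.0147). In CD4-cre it was 0.57 (adjusted p = 0.0351), and the 2 other Myb probe sets had 0.96 and 0.82 in Foxp3-cre and 0.84 and 0.71 in CD4-cre. The call in CD4-cre held without Foxp3-cre replicate 1 or WT replicate 2 and was lost without any other single array, and that in Foxp3-cre was lost without Foxp3-cre replicate 3. Myb is also one of the factors that bind primary granule promoters in mice. Others, chosen for that role outside the naming rule, had no call: Cebpa stood at -0.02 in Foxp3-cre and 0.12 in CD4-cre, Spi1 (PU.1) at 0.31 and -0.62, Runx1 at 0.31 and 0.21, and Gfi1, a repressor of Elane in mice, at 0.01 and 0.04. The list's medians were 0.32 in Foxp3-cre (0.14 without Foxp3-cre replicate 3 and 0.18 without WT replicate 2) and 0.10 in CD4-cre (0.17 without WT replicate 2).

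Surface molecules of precursors did not pass either. Of 11 with a probe set, 7 were bright enough to test, and 0 passed in limma, with 1 higher in Foxp3-cre and 2 lower in CD4-cre at an unadjusted p under 0.05. Csf1r, the receptor of M-CSF, stood at 0.84 in Foxp3-cre (adjusted p = 0.354) and Csf2ra, a chain of the GM-CSF receptor, at 0.82 (adjusted p = 0.160). In CD4-cre they stood at -0.35 and 0.25. Csf3r, the G-CSF receptor, stood at -0.33 in Foxp3-cre and -1.53 in CD4-cre, Il3ra at -0.28 and -0.18, and Fcgr3 at 0.20 and -0.95. Of the 7, 5 were higher and 2 lower in Foxp3-cre, and 3 higher and 4 lower in CD4-cre. Of all genes 51.1% and 56.3% were higher. The tested genes were not all dim: Flt3, a receptor of early precursors, lay between 5.34 and 6.06 on the 9 arrays. Csf3r lay between 6.31 and 8.94, and Csf1r between 6.81 and 9.35. Kit, the stem cell factor receptor, lay between 4.26 and 5.27 and Cd34 between 2.76 and 3.69, both below the filter. Flt3, Csf3r, Kit and Cd34 were chosen outside the naming rule, and so were Il3ra and Fcgr3, after their values were seen. Ms4a3, a marker of granulocyte and monocyte progenitors chosen after its values were seen, was also below the filter, at 4.69, 4.23 and 5.02 in Foxp3-cre, 4.11, 4.11 and 4.15 in CD4-cre, and 3.70, 4.15 and 3.54 in WT.

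**Figure D3:**
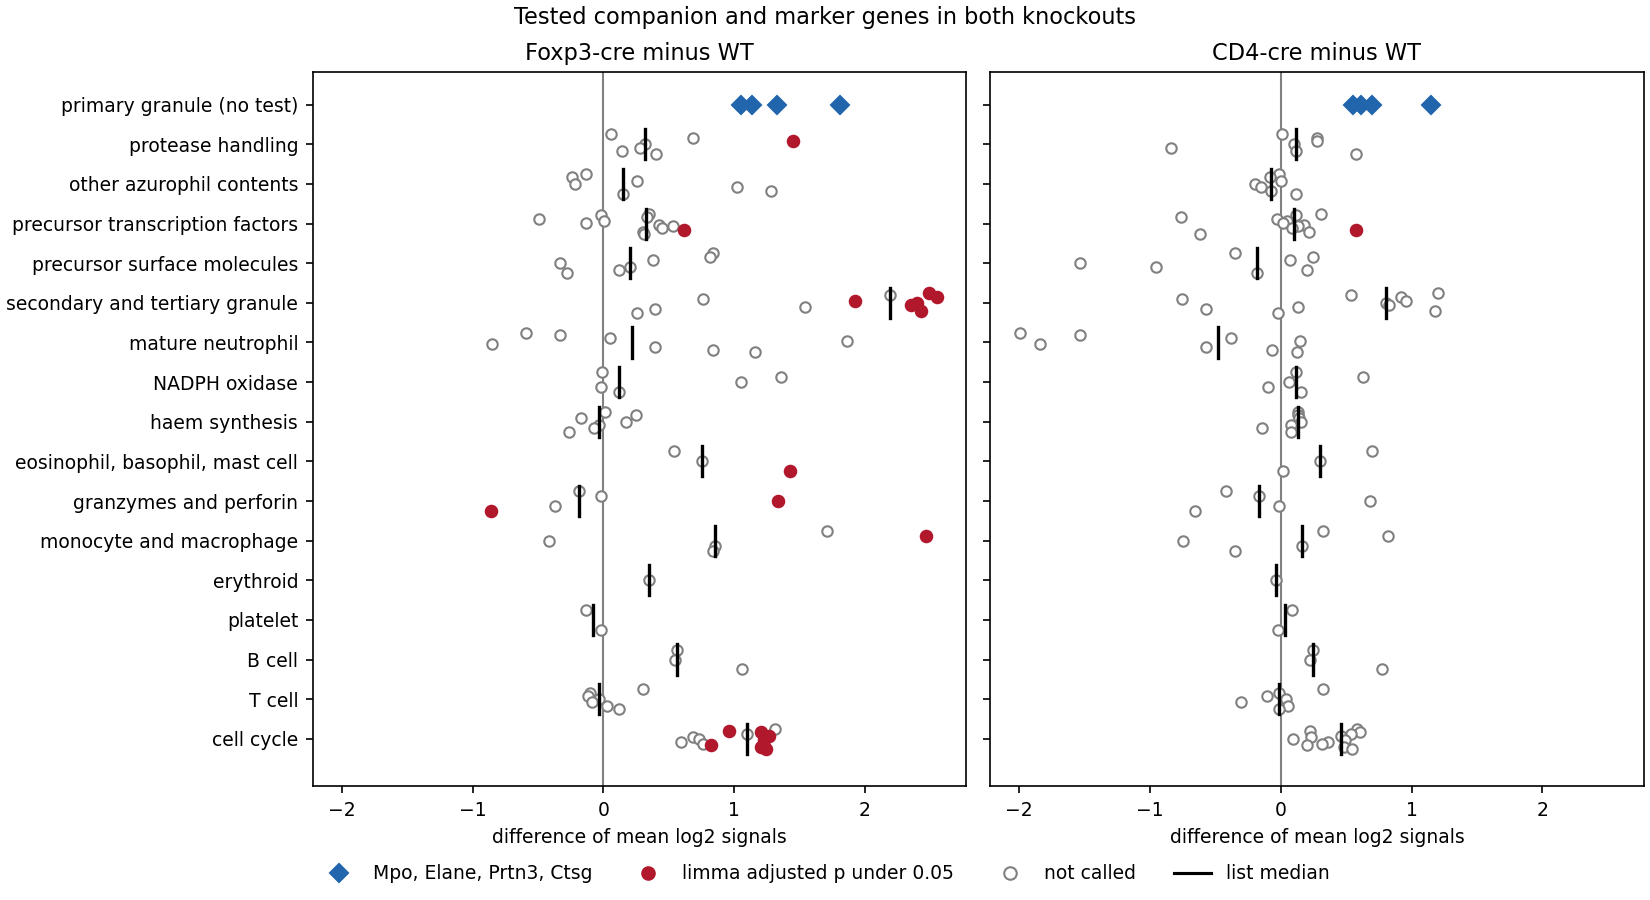
Difference of mean log2 signals of each tested companion gene in Foxp3-cre minus WT and in CD4-cre minus WT, by list; filled circles passed limma's adjusted p under 0.05, open circles did not, bars are list medians, and diamonds are Mpo, Elane, Prtn3 and Ctsg, which have no test. Secondary granule and cell cycle genes hold most of the filled circles in the Foxp3-cre panel, and in the CD4-cre panel Myb is the only one.

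The genes of the next stage, secondary and tertiary granules, had a list median of 2.19 in Foxp3-cre, beside 1.05 to 1.81 for the primary granule genes. Of 11 tested, 6 rose, Camp, Ngp, Ltf, Lcn2, Chil3 and Itgb2l, with 11 of 11 higher and 8 of 11 with all 3 Foxp3-cre arrays above all 3 WT arrays. Of all genes tested, 51.1% were higher in this contrast and 11.1% had all 3 arrays above. Camp, the cathelicidin antimicrobial peptide, read 10.28, 11.03 and 11.73 in Foxp3-cre, 9.42, 9.07 and 10.70 in CD4-cre, and 7.81, 8.60 and 9.18 in WT. The Foxp3-cre arrays lie above WT and reach into the CD4-cre range. Its difference was 2.49 in Foxp3-cre (SE 0.50, 5.61-fold, adjusted p = 0.0328). In CD4-cre it was 1.20 (adjusted p = 0.330). Chil3, a chitinase-like protein, rose by 2.55, Ngp, a granule protein of the cathelicidin family, by 2.43, Lcn2, which binds bacterial siderophores, by 2.40, and Itgb2l, an integrin chain, by 1.92. In CD4-cre 0 of the 11 passed in limma (3 higher at an unadjusted p under 0.05). There 8 of 11 were higher, beside 56.3% of all genes, and the median was 0.80. That median was 0.36 without CD4-cre replicate 3, 0.46 without WT replicate 1 and 0.48 without WT replicate 2. The count of 6 was 0 without Foxp3-cre replicate 2, Foxp3-cre replicate 3 or CD4-cre replicate 1, 3 without CD4-cre replicate 2, WT replicate 1 or WT replicate 3, and 5 without WT replicate 2.

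Mature neutrophil genes had no call. Of 8 tested, 0 passed in limma in either knockout, with 3 higher and 1 lower in Foxp3-cre and 3 lower in CD4-cre at an unadjusted p under 0.05. The list median was 0.22 in Foxp3-cre and -0.48 in CD4-cre. The first turned to -0.09 without Foxp3-cre replicate 3 and to -0.02 without WT replicate 2, and was 0.53 without Foxp3-cre replicate 1 and 0.51 without WT replicate 3. The second was -0.72 without WT replicate 2 and -0.19 without WT replicate 3, and 1 gene fell in CD4-cre without WT replicate 2, Foxp3-cre replicate 1 or Foxp3-cre replicate 3. Fpr2, a chemoattractant receptor, had 1.86 in Foxp3-cre (adjusted p = 0.0955), against 0.15 in CD4-cre, and S100a9, a calcium-binding alarmin, had 1.16 (adjusted p = 0.104), against 0.13. Chosen after their values were seen, Clec4d, a lectin receptor, stood at -0.59 in Foxp3-cre and -2.00 in CD4-cre (adjusted p = 0.0703), and Il1b, a cytokine, at -0.85 and -1.84 (adjusted p = 0.0725). In CD4-cre minus WT, the differences of the primary granule genes were 0.55 to 1.15.

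Within Foxp3-cre the stages ran through the arrays in different orders. Replicate 1 was the lowest array for 11 of 11 secondary granule genes, 8 of 8 mature neutrophil genes and 5 of 5 monocyte and macrophage genes, and replicate 3 the highest for each of them. Lists of other kinds had the same extremes, with both counts 3 of 3 for B cell genes and 4 of 5 for granzymes and perforin. Both were 6 of 7 for precursor surface molecules and for other azurophil contents, so this order is not particular to neutrophil stages. T cell genes differed, with replicate 1 highest for 5 of 7. Mmp9 counts in both the secondary granule and the mature neutrophil list. The share of all tested genes was not counted. For the primary granule genes replicate 1 was the lowest array for 0 of 4. In CD4-cre, replicate 3 was the highest array for 11 of 11 secondary granule genes, 7 of 8 mature neutrophil genes and 2 of 4 primary granule genes. In WT, replicate 3 was the highest array for 10 of 11 secondary granule genes, 8 of 8 mature neutrophil genes and 2 of 4 primary granule genes. Replicate 3 was thus the highest array for most secondary granule and mature neutrophil genes in all 3 groups. The mean of the secondary granule list was 8.59, 9.23 and 9.97 on Foxp3-cre replicates 1, 2 and 3, against 6.42, 5.83 and 6.25 for the mean of Mpo, Elane, Prtn3 and Ctsg. The difference in order was not tested.

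**Figure D4:**
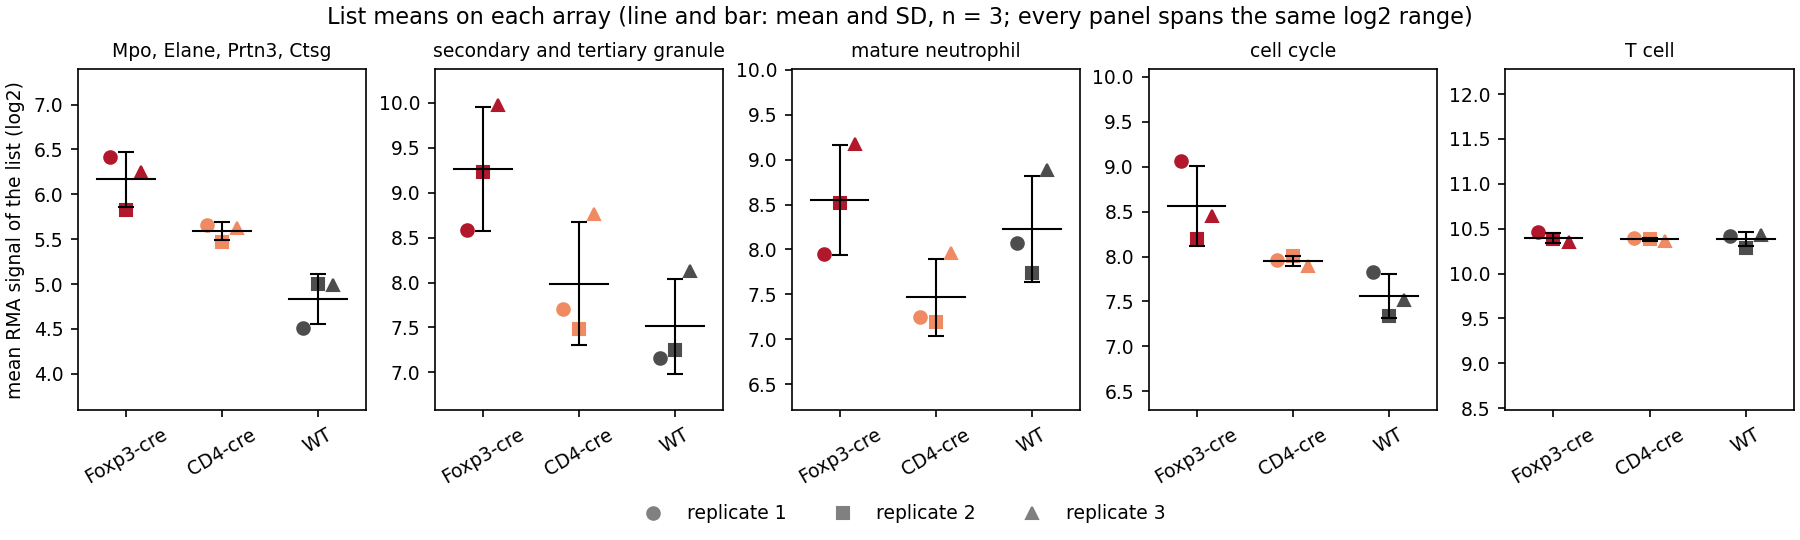
Mean log2 signal over the genes of a list on each array, for Mpo, Elane, Prtn3 and Ctsg and for 4 other lists, by genotype; markers give the replicate, lines and bars the mean and SD (n = 3), and every panel spans the same log2 range. Foxp3-cre replicate 1 is the highest of its group for the primary granule genes and the cell cycle genes and the lowest for the secondary granule and mature neutrophil genes, while T cell markers are level.

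Markers of other cell types were also read, with no measure of how pure the separated cells were. Monocyte and macrophage markers had 5 of 10 genes bright enough to test, and their mean was 7.12 ± 0.72 in Foxp3-cre, 6.07 ± 0.64 in CD4-cre and 6.03 ± 0.20 in WT (SD, n = 3 each). At an unadjusted p under 0.05, 3 were higher and 1 lower in Foxp3-cre, and 0 higher and 1 lower in CD4-cre. Ccr2, chosen after its values were seen, stood at -0.42 in Foxp3-cre and -0.75 in CD4-cre on its brightest probe set. C1qb, a complement chain of macrophages, was the only one to pass in limma. It rose in Foxp3-cre, by 2.47 (adjusted p = 0.0368), and its other probe sets had differences of 0.40 and 1.50. That call was lost without Foxp3-cre replicate 2 or 3, CD4-cre replicate 1 or 2, or WT replicate 1 or 3. B cell markers had 3 of 6 genes tested and 0 passed in limma (1 higher at an unadjusted p under 0.05); their mean was 8.43 ± 1.02 in Foxp3-cre, 8.12 ± 0.05 in CD4-cre and 7.70 ± 0.45 in WT. Ms4a1, which encodes CD20, stood at 1.06 in Foxp3-cre (adjusted p = 0.231) and Cd79a, a chain of the B cell receptor, at 0.57 (adjusted p = 0.446). Erythroid and platelet markers were mostly dim, with 1 of 8 and 2 of 7 tested and 0 called in limma, 0 also at an unadjusted p under 0.05. Car2 stood at 0.35, Itga2b at -0.13 and Treml1 at -0.02 in Foxp3-cre. The erythroid marker Alas2, chosen after its values were seen, was below the filter by its mean but varied widely. It read 3.25, 5.85 and 6.58 in Foxp3-cre, 4.27, 5.43 and 5.09 in CD4-cre, and 4.09, 4.70 and 5.18 in WT. Of 7 T cell markers 0 passed in limma or at an unadjusted p under 0.05 in Foxp3-cre, with 1 lower at an unadjusted p in CD4-cre; Cd28 stood at 0.30 and Il2ra, which encodes CD25, at 0.12 in Foxp3-cre. Whether cells of these other types were present, and their part in the signals of Mpo, Elane, Prtn3 and Ctsg, was not tested.

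Granule genes of eosinophils, basophils and mast cells include relatives of the primary granule enzymes. Only 3 of the 12 with a probe set were bright enough to test, with a median of 0.75 in Foxp3-cre and 0.30 in CD4-cre (0.10 without CD4-cre replicate 1, 0.48 without CD4-cre replicate 2 and 0.11 without WT replicate 3). Prg2, the major basic protein of eosinophils, rose in Foxp3-cre, where it averaged 7.42 ± 0.51 (SD, n = 3), against 5.86, 5.81 and 6.35 in CD4-cre and 6.19, 6.11 and 5.68 in WT. All 3 Foxp3-cre arrays lay above the other 6, while CD4-cre and WT overlapped. Its difference was 1.42 (SE 0.25, adjusted p = 0.0229) in Foxp3-cre and 0.01 in CD4-cre. Epx, the eosinophil peroxidase and a close relative of Mpo, was below the filter, at 3.77, 4.08 and 4.50 in Foxp3-cre, 3.01, 3.44 and 3.75 in CD4-cre, and 2.68, 3.43 and 2.71 in WT. The call on Prg2 was lost without WT replicate 3.

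The granzymes are serine proteases of the same fold as Elane, Prtn3 and Ctsg, made by lymphocytes. Of 5 tested granzyme and perforin genes 1 rose and 1 fell in Foxp3-cre, with a median of -0.19 (-0.39 without Foxp3-cre replicate 3, -0.07 without Foxp3-cre replicate 1 and -0.10 without Foxp3-cre replicate 2), and 0 passed in limma in CD4-cre (1 higher and 1 lower at an unadjusted p under 0.05). Gzmk, granzyme K, read 6.84, 5.68 and 6.36 in Foxp3-cre, 5.59, 5.57 and 5.75 in CD4-cre, and 4.97, 4.96 and 4.93 in WT. Foxp3-cre replicate 2 falls among the CD4-cre arrays, and WT lies below both knockouts. It rose in Foxp3-cre by 1.34 (SE 0.23, 2.53-fold, adjusted p = 0.0212). In CD4-cre it stood at 0.68 (adjusted p = 0.237). Prf1, the pore-forming perforin, fell by 0.86 in Foxp3-cre (adjusted p = 0.0432) on its brighter probe set, while its dim probe set stood at -0.0027; that call held in 1 of 9 fits that leave out an array, the one without Foxp3-cre replicate 3. The call on Gzmk was lost without Foxp3-cre replicate 3 or WT replicate 3.

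Cell cycle genes serve DNA replication and mitosis. Of 13 tested, 7 rose in Foxp3-cre, Top2a, Ccnb2, Birc5, Kif11, Ube2c, Nusap1 and Rrm2, with a median of 1.10. In that contrast 13 of 13 were higher, beside 51.1% of all genes. All 3 Foxp3-cre arrays lay above all 3 WT arrays for 12 of 13, beside 11.1% of all genes. In CD4-cre 0 passed in limma (3 higher at an unadjusted p under 0.05, beside 7.38% of all genes). There 13 of 13 were higher, beside 56.3% of all genes, with a median of 0.46, which was 0.26 without WT replicate 2. Their mean was 8.57 ± 0.45 in Foxp3-cre, 7.95 ± 0.06 in CD4-cre and 7.56 ± 0.25 in WT (SD, n = 3 each). Kif11, a spindle motor, rose by 1.27 (adjusted p = 0.0196), Ube2c, a mitotic ubiquitin-conjugating enzyme, by 1.25, Nusap1, a spindle protein, by 1.23, Top2a, a DNA topoisomerase, by 1.20 and Rrm2, a ribonucleotide reductase subunit, by 0.83. Foxp3-cre replicate 1 was the highest and replicate 2 the lowest array of the group for 13 of 13 of these genes. The count of 7 was 0 without Foxp3-cre replicate 3 or WT replicate 3, 3 without CD4-cre replicate 1 or 2, 4 without CD4-cre replicate 3, and 7 without WT replicate 2.

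The genes most like the mean of the 4 primary granule genes were ranked by Pearson's r over the 9 arrays, among all other tested genes. The first 10 were Smarca4 (r = 0.960), Cpne2 (0.945), Gzmk (0.945), Stmn1 (0.942), Cbx5 (0.940), Cela1 (0.925), Naip6 (0.922), Stard4 (0.921), Ebi3 (0.917) and Lmnb1 (0.912). None of them is a neutrophil granule gene of the lists. Smarca4 is a chromatin remodelling ATPase, Stmn1 a microtubule-destabilizing protein of dividing cells, Cbx5 the heterochromatin protein HP1 alpha, Lmnb1 the nuclear lamin B1, Ebi3 a chain of interleukin 35, and Cela1 a pancreatic-type elastase of the same protease fold as Elane. Stmn1 read 10.76, 10.16 and 10.35 in Foxp3-cre, 9.84, 9.84 and 9.97 in CD4-cre, and 9.47, 9.44 and 9.40 in WT. It shows the same grading as Prtn3 with no overlap between groups and a difference of 0.99 in Foxp3-cre minus WT, at far brighter signals. Smarca4, first in the ranking, had a difference of 0.24 in Foxp3-cre that did not pass (adjusted p = 0.111), and its dimmer probe set stood at -0.05. The 5 probe sets of Cbx5 did not go the same way: the brightest stood at 0.80 and the other 4 between -0.30 and 0.14 in Foxp3-cre. The ranking carries the genotype difference of the 4 genes. By Spearman's rho 4 of these 10 genes stayed among the first 10, without WT replicate 2 there were 5, and after each group's mean was taken off there were 0.

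**Figure D5:**
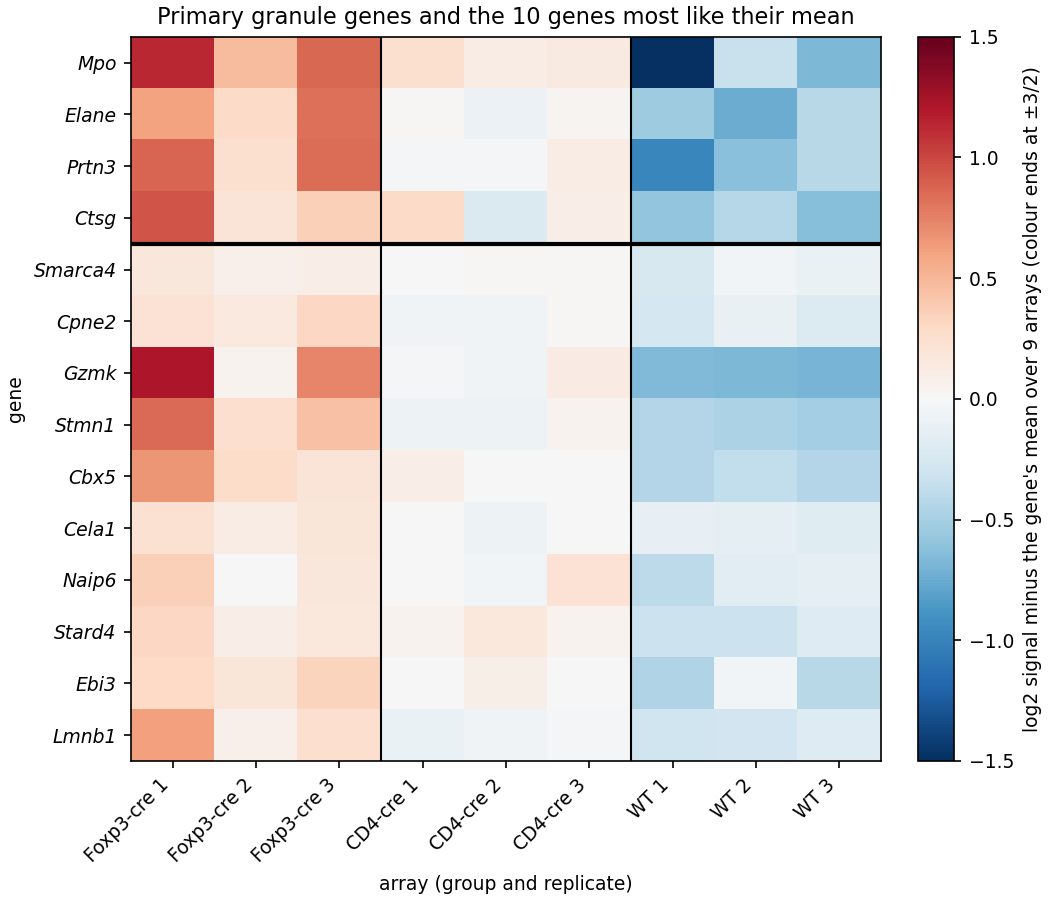
Log2 signal of Mpo, Elane, Prtn3 and Ctsg and of the 10 genes most like their mean, as the difference from each gene's own mean over the 9 arrays (colour); columns are arrays, with Foxp3-cre, CD4-cre and WT from left to right. Every WT column is below the gene's mean, and every Foxp3-cre column above it except Naip6 on replicate 2.

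The tested neighbours of these genes on the chromosome had no call. Elane and Prtn3 lie next to each other on chromosome 10, with 0 annotated genes between them. Their nearest tested neighbours, Ptbp1, a splicing regulator, and Med16, a Mediator subunit, stood at 0.14 and 0.11 in Foxp3-cre minus WT, and neither was called. Next to Mpo on chromosome 11 lie the related peroxidases Lpo and Epx, both dim, with differences of -0.25 and 1.17. Ctsg lies on chromosome 14 among granzyme and mast cell protease genes; Mcpt8, a basophil protease, had 0.75 in Foxp3-cre (adjusted p = 0.159), against 0.30 in CD4-cre, and the dim Mcpt2, Mcpt4, Gzmd, Gzme and Gzmg lay between -0.07 and 0.12 in Foxp3-cre.

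Set directly against each other, the 2 knockouts differed by limma in 1 of the 7436 genes, Foxp3 (0.0134%), and 0 companions passed. Of the 100 companions 42 were higher and 3 lower in Foxp3-cre minus CD4-cre at an unadjusted p under 0.05, beside 5.14% and 6.16% of all genes, with a median of 0.35, against -0.01 for all genes. The median was 0.64 for the cell cycle genes (0.39 without Foxp3-cre replicate 1), 1.41 for the secondary granule genes and 1.01 for the mature neutrophil genes. Higher in Foxp3-cre were 13 of 13, 11 of 11 and 8 of 8, beside 45.3% of all genes. The primary granule genes stood at 0.44 to 0.66. Without WT replicate 2, 1 companion rose, and with the knockout arrays alone in the fit 1 rose, and with array weights 42 rose and 3 fell among 810 genes called outside the 4. When the fit also took account of the replicate number, 23 companions rose and 0 fell among 95 genes called outside the 4. The count thus depends on how the spread was modelled.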

How the data were processed

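The values are the log2 signals that the authors deposited, 1 per probe set and array, made with RMA per the submitters' processing notes; the sources used here give no version. RMA corrects background, normalizes between arrays and summarises probes, and it compresses differences of dim probe sets. The table holds 22690 probe sets: 64 controls, 20380 with 1 gene symbol, 691 with several and 1555 unnamed by the platform annotation. Where a gene had several probe sets, the one with the highest mean signal stood for it. Genes at or above the 40th percentile of gene means were tested, 7436 of 12393. limma 3.58.1 in R 4.3.3 (lmFit, eBayes) was fitted once over the 3 groups, two-sided, with Benjamini-Hochberg adjustment over all genes tested. Figures were drawn with matplotlib 3.10.9. The 4 genes, the 16 lists and the tests were chosen with earlier results of these data known. Companion genes are named by rule: up to 5 called genes a list, smallest p first, or the 2 with the largest difference, and genes adjacent to a member (Epx among them). Ctsc, Srgn, Slpi, Cebpa, Spi1, Runx1, Gfi1, Flt3, Csf3r, Il3ra, Fcgr3, Kit, Cd34, Ms4a3, Clec4d, Il1b, Alas2 and Ccr2 were named outside the rule. Ltf, Birc5 and Ccnb2 were named only to complete counts of calls. With 3 arrays in a group, precision is limited by their number. Alternatives changed replicates, filter, probe sets, normalization, variance model and blocking. The promoter search was tested on simulated sequence and the fit on simulated data.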

Additional observations from a re-analysis of the deposited data

How the results depend on the processing

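The mean difference of Mpo, Elane, Prtn3 and Ctsg kept its sign and moved by less than the spread between replicates under every alternative that gave a value: leaving out 1 array gave 1.17 to 1.50 in Foxp3-cre minus WT, 0.59 to 0.83 in CD4-cre minus WT and 0.45 to 0.75 in Foxp3-cre minus CD4-cre. A filter at the 60th percentile of gene means removed all 4 genes. The calls among other genes rest on few arrays. In Foxp3-cre minus WT, 246 genes outside the 4 were called, 69 to 563 with 1 array left out, 16 with only those 2 groups in the fit and 1535 with array weights. In CD4-cre minus WT, 49 were called, 4 to 191 with 1 array left out, 22 with only those 2 groups in the fit, 1295 with array weights and 29 with the 60th percentile filter. In Foxp3-cre minus CD4-cre, 1 was called, 1 to 72 with 1 array left out, 55 with only those 2 groups in the fit, 810 with array weights, 5 after quantile normalization again and 2 after median centring. Companion genes that rose numbered 18 in Foxp3-cre minus WT (1 to 23 with 1 array left out, 0 with only those 2 groups, 35 with array weights), 1 in CD4-cre minus WT (0 to 1, and 11 with array weights) and 0 in Foxp3-cre minus CD4-cre (0 to 1, 1 with only those 2 groups, 42 with array weights). Those that fell numbered 1 (0 to 1, and 4 with array weights), 0 (0 to 2, 1 with only those 2 groups and 14 with array weights) and 0 (3 with array weights) in the same contrasts. Same-numbered arrays of different groups deviated together with r of -0.03 to 0.49, over 0.1 in 7 of 9 pairs. The main fit did not take the numbers as pairing, since this did not hold for every pair. An effect shared by same-numbered arrays remains possible and was not tested. With the replicate block 31, 2 and 23 companion genes rose and 2, 4 and 0 fell in the 3 contrasts. Between the knockouts 95 genes were then called, so these counts depend on that choice. The causes were not tested. No detection calls were used, so how far the 4 dim genes lie above background is not known.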
